A study of Rattus norvegicus with 9 samples.

Results

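The genes described here are the Wnt ligands, their receptors and their secreted inhibitors in the rat spinal cord. They were taken from the annotated rows of the count table by name. A row entered where it was protein coding and its symbol began with Wnt, Fzd, Sfrp, Dkk or Rspo followed by a number, or was Frzb, Wif1, Lrp5, Lrp6, Axin2 or Ror2. The rule gave 47 genes of the 30507 rows, and each of the 47 had a single row. By role, assigned from the symbol, they are 19 Wnt ligands, 4 R-spondins, 13 receptors, 10 secreted inhibitors and 1 feedback target, Axin2.

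Wnt proteins are lipid-modified signals that leave a cell and bind Frizzled receptors on the same or nearby cells. With the co-receptor Lrp5 or Lrp6, a Frizzled stabilises β-catenin, which enters the nucleus and acts with TCF/LEF factors on target genes, while Ror2 and other receptors carry β-catenin-independent signals. R-spondins amplify a Wnt signal by keeping the ligases Rnf43 and Znrf3 from removing Frizzleds. Many Sfrp and Dkk proteins, Frzb and Wif1 hold a signal down outside the cell. In the spinal cord the pathway is known for patterning the neural tube, guiding axons and building the vessels of the blood-brain barrier.

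RNA-seq of whole spinal cord tissue compared Sham, SCI and SCI + SCS, with 3 wild-type rats in each group at day 35. All were young adult female Sprague-Dawley rats, and all had the spinal cord exposed at T10, although the labels call the Sham rats untreated. SCI rats had a contusion at T10 and an electrode plug on the neck without an electrode. SCI + SCS rats had the same contusion, epidural electrodes and daily high-frequency stimulation from the day after injury, so that electrode and current cannot be told apart here. Tissue came from the injury epicentre segments, the labels name a single batch, and p-values measure the spread between these rats.

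The libraries held 62844376 to 88358570 counts. Levels are given as CPM, read counts scaled to library size and normalised over the 9 libraries. FPKM, which is also scaled by length, is used where genes are compared with each other. Markers of neurons (8 genes) and oligodendrocytes (8 genes) were detected in every library. The oligodendrocyte sum was 58166 to 81473 CPM in Sham, 17010 to 32478 in SCI and 29949 to 35604 in SCI + SCS, and 6 of the 8 were called lower in SCI than in Sham (median log2FC -1.33). The summed CPM of 8 fibroblast and meninges markers was 400 to 2067 in Sham, 3664 to 5599 in SCI and 2242 to 3761 in SCI + SCS, and 7 of the 8 were called higher in SCI than in Sham. The neuron sum ran from 3391 to 7455 in Sham, from 374 to 1343 in SCI and from 1293 to 2352 in SCI + SCS, and all 8 were called lower in SCI. Skeletal muscle markers (8 genes) summed to 3545 CPM in SCI replicate 1 and 960 in SCI replicate 3, against 13.1 to 67.5 in the other libraries. Sham replicate 1 stood apart from the other Sham libraries, with the lowest fibroblast sum (400, against 1255 and 2067) and the highest neuron sum (7455, against 4597 and 3391). In bulk tissue, fewer cells of a type and less RNA per cell cannot be told apart.

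By mean FPKM over the 9 libraries, the most abundant ligands were Wnt6, Wnt4 and Wnt5b. In Sham, Wnt6 stood at 9.21 ± 7.92 FPKM (SD, n = 3), Wnt7a at 6.06 ± 1.96, Wnt7b at 4.58 ± 1.17, Wnt4 at 4.27 ± 2.62, Wnt5b at 4.03 ± 2.32 and Wnt16 at 3.32 ± 2.93. These neighbours in the order did not differ beyond their spread. In SCI the order was led by Wnt6 (32.2 ± 15.5 FPKM), then Wnt5b (9.47 ± 2.53), Wnt4 (9.19 ± 2.01) and Wnt16 (9.04 ± 4.68), with Wnt7a at 2.82 ± 0.694 and Wnt7b at 1.91 ± 0.395. In SCI + SCS, Wnt6 was at 19.9 ± 7.27 FPKM and Wnt7a at 4.65 ± 0.776. The other ligands stayed below 6 FPKM on average in every group. Wnt1, Wnt3a and Wnt8a were close to absent, with 5, 4 and 3 counts at most in any library.

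Among receptors, Fzd2, Fzd10 and Lrp5 had the highest mean FPKM over the 9 libraries. Fzd10 was the highest in Sham (6.55 ± 1.67 FPKM), above Fzd2 (4.27 ± 1.78) in each Sham library. In SCI, Fzd2 stood at 11.5 ± 3.10 FPKM and Fzd10 at 4.40 ± 1.26. Both Sfrp5 and Dkk3, counted as inhibitors by their symbols alone, had a higher mean than any receptor in every group. Sfrp5 stood at 48.5 ± 22.6 FPKM in Sham, 37.0 ± 9.11 in SCI and 47.0 ± 14.6 in SCI + SCS, and Dkk3 at 17.8 ± 6.33, 32.8 ± 13.8 and 22.8 ± 6.59. Sfrp1, the third inhibitor by the mean over the 9 libraries, was at 3.77 ± 2.05, 15.2 ± 3.18 and 8.57 ± 1.69 FPKM, and in Sham Frzb (5.06 ± 1.99) had the higher mean.

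The make-up of the ligand pool differed between the libraries. Wnt7a and Wnt7b, which support vessel growth and barrier formation in the central nervous system, together held 60.8%, 28.3% and 14.1% of the summed ligand FPKM in Sham replicates 1, 2 and 3. Their share was 10.8%, 5.92% and 3.86% in the SCI libraries and 8.64%, 17.7% and 17.3% in SCI + SCS. Every Sham library lay above every SCI library, and the SCI + SCS libraries overlapped both groups. Wnt6 moved the other way, with 5.44%, 23.6% and 33.1% in Sham, 39.0%, 36.8% and 46.3% in SCI and 39.8%, 33.8% and 28.9% in SCI + SCS. The shares are parts of the same sum, so a higher Wnt6 share leaves less for the others, and these shares are not independent. For both shares the exact two-sided permutation test of SCI against Sham gave p = 0.1, the smallest that 3 against 3 allows, and that of SCI + SCS against SCI gave p = 0.2 for Wnt7a and Wnt7b and p = 0.3 for Wnt6. The summed ligand FPKM itself was 22.0 to 51.4 in Sham, 55.3 to 108 in SCI and 49.2 to 70.5 in SCI + SCS. Much of the Sham range came from replicate 1, the library with the most neuron and the least fibroblast marker RNA, and the part of these cells in the shares was not tested.

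**Figure D1:**
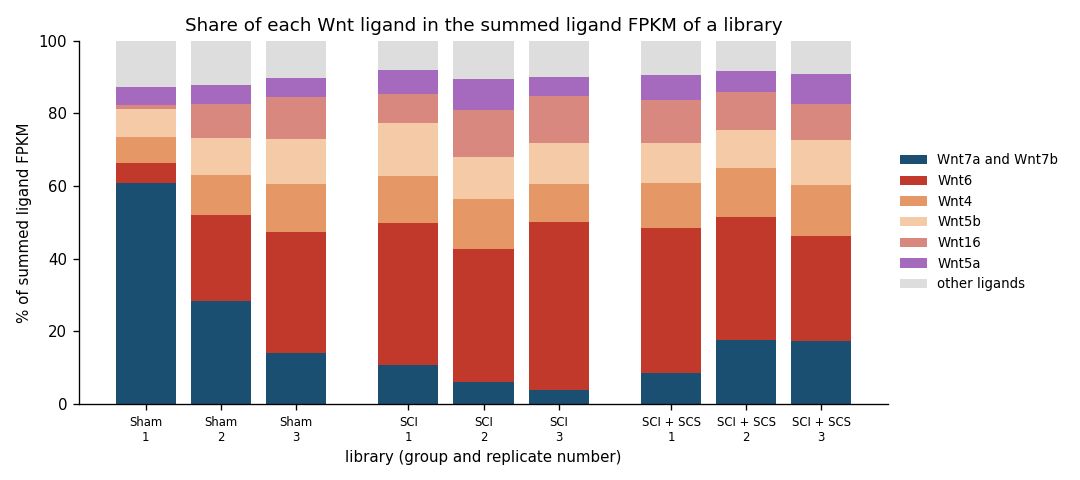
Each bar is 1 library, and its segments are the percentage of the summed FPKM of 19 Wnt ligands held by the ligands named in the key. The Wnt7a and Wnt7b segment spans 14.1% to 60.8% in the Sham libraries and is 10.8% or less in the SCI libraries, while Wnt6 holds 36.8% to 46.3% in SCI.

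Spinal cord injury was compared with Sham first. At day 35, 12 of the 43 members tested were higher in SCI and 8 were lower, by edgeR's quasi-likelihood test with a Benjamini-Hochberg adjusted p under 0.05 and |log2FC| over 1. The R-spondins Rspo1 and Rspo3, the ligands Wnt2, Wnt2b, Wnt5a, Wnt10a and Wnt11, the receptors Fzd2, Fzd6 and Fzd7 and the inhibitors Sfrp1 and Sfrp4 rose. The ligands Wnt3, Wnt7a, Wnt7b, Wnt8b and Wnt9b, the receptors Fzd5 and Fzd9 and the inhibitor Wif1 fell. Of all 17822 rows tested, 13.4% were called higher and 13.6% lower, against 27.9% and 18.6% of the members. The median log2FC of the members was 0.41, beside 0.02 over all rows. Every SCI library lay on 1 side of every Sham library for 15 members higher in SCI (34.9%, against 32.6% of all rows) and for 8 lower (18.6%, against 31% of all rows). A further 23 members were tested and not called, and 4 with too few counts for edgeR were not tested (Wnt1, Wnt3a, Wnt8a and Rspo4). DESeq2 called 15 of 44 members higher (34.1%, against 13.6% of all rows) and 9 lower (20.5%, against 13.2%), the further calls being Fzd1, Wnt4 and Wnt5b higher and Rspo4 lower.

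Among the ligands, 5 rose and 5 fell of 16 tested. Wnt2b, a canonical ligand, was at 0.613, 1.78 and 1.60 CPM in Sham and at 3.54, 4.2 and 9.13 in SCI. Each SCI library was above each Sham library, with a log2FC of 2.05 ± 0.53 (SE, adjusted p = 0.0186). Its relative Wnt2 went from 0.204, 0.477 and 0.801 CPM to 1.10, 2.17 and 2.38, a log2FC of 1.90 ± 0.55 (adjusted p = 0.0280). Wnt10a, a ligand of skin and tooth development, was at 0.393, 0.534 and 0.927 CPM in Sham and 1.75, 1.59 and 3.03 in SCI (log2FC 1.76 ± 0.43, adjusted p = 0.0161). The groups were apart for both. Wnt11 and Wnt5a mostly act without β-catenin. Wnt11 measured 0.959, 1.35 and 1.40 CPM in Sham and 2.55, 3.65 and 4.23 in SCI (log2FC 1.47 ± 0.29, adjusted p = 0.00699), and Wnt5a, the more abundant of the pair, 7.69, 14.0 and 18.1 CPM against 27.3, 38.0 and 36.5 (log2FC 1.33 ± 0.31, adjusted p = 0.0132).

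The 3 ligands with the highest mean FPKM over the 9 libraries, Wnt6, Wnt4 and Wnt5b, did not pass edgeR's test although their groups were apart. Wnt6 was at 3.16, 23.6 and 43.9 CPM in Sham and 61.9, 61.7 and 123 in SCI, with a log2FC of 1.79 ± 0.82 and an adjusted p of 0.112. With a replicate block, although the numbers did not pair the rats, edgeR called Wnt6 (log2FC 2.28, adjusted p = 0.0450), Wnt4 and Wnt5b. The Sham libraries alone spanned a wider range of ratios than that difference. Wnt4 had a log2FC of 1.09 ± 0.47 (adjusted p = 0.0935) and Wnt5b one of 1.22 ± 0.44 (adjusted p = 0.0569), and both were called by DESeq2 (adjusted p = 0.0358 and 0.0110). Wnt16 overlapped between the groups, at 0.472, 7.46 and 12.5 CPM in Sham and 10.3, 17.4 and 27.4 in SCI (log2FC 1.41 ± 0.95, adjusted p = 0.252). It was singled out after its values were seen, as the member with the widest Sham range among those above 0 in every Sham library.

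Of the ligands that fell, Wnt9b, best known from kidney development, changed most. It measured 0.770, 0.931 and 1.76 CPM in Sham and 0.228, 0.241 and 0.260 in SCI, so that the SCI libraries lay close together below all of Sham (log2FC -2.26 ± 0.42, adjusted p = 0.00600). Wnt3, a canonical ligand, was at 1.13, 1.61 and 0.766 CPM in Sham and 0.355, 0.341 and 0.101 in SCI (log2FC -2.15 ± 0.56, adjusted p = 0.0190). Wnt8b, a ligand of the developing forebrain, was at 1.63, 1.43 and 0.869 CPM against 0.495, 0.440 and 0.202 (log2FC -1.80 ± 0.45, adjusted p = 0.0173). These 3 ligands were low everywhere, below 2 CPM in each library. Wnt7b was better covered, at 24.9, 19.0 and 14.4 CPM in Sham and 11.5, 7.22 and 6.82 in SCI (log2FC -1.21 ± 0.28, adjusted p = 0.0135). Wnt7a was called too, but its groups overlapped, with 15.2 CPM in Sham replicate 3 and 15.8 in SCI replicate 1 (log2FC -1.09 ± 0.33, adjusted p = 0.0331).

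Position in the genome links some of these ligands. On the mRatBN7.2 assembly, Wnt9b (ENSRNOG00000003807, chr10:88635331-88657035, minus strand) and Wnt3 (ENSRNOG00000003845, chr10:88680248-88724099, plus strand) lie 23.2 kb apart with no coding gene between, and both fell. Wnt6 (ENSRNOG00000017409, chr9:76329882-76343523) and Wnt10a (ENSRNOG00000052510, chr9:76349931-76362400) lie 6.41 kb apart on the plus strand, and of them Wnt10a rose and Wnt6 missed the threshold. The pairs Wnt3a with Wnt9a, 20.8 kb apart on chromosome 10, and Wnt10b with Wnt1, 10.7 kb apart on chromosome 7, had no called gene. Wnt9a had a log2FC of 0.41 ± 0.47 and Wnt10b one of 1.49 ± 1.10. These pairs were looked at after the values were known.

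R-spondins held the largest rise of all members. Rspo1 (ENSRNOG00000009656, chr5:137251659-137272933) was at 1.51, 1.58 and 1.04 CPM in Sham and at 7.03, 10.9 and 8.11 in SCI. Every SCI library lay far above every Sham library, and the log2FC was 2.64 ± 0.27, a 6.21-fold rise (adjusted p = 0.00143). Rspo1 was not low in Sham replicate 1. Rspo3, known for its part in vessel growth, was at 0.833, 0.897 and 1.38 CPM in Sham and 1.57, 4.85 and 4.62 in SCI, where replicate 1 sat just above Sham (log2FC 1.81 ± 0.48, adjusted p = 0.0203). Rspo2 overlapped between the groups (log2FC 0.65 ± 0.50, adjusted p = 0.319). Rspo4 had 29, 27 and 10 counts in the Sham libraries and 0, 0 and 3 in the SCI libraries, under the count filter of edgeR, while DESeq2 called it lower (log2FC -4.39, adjusted p = 0.00587).

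**Figure D2:**
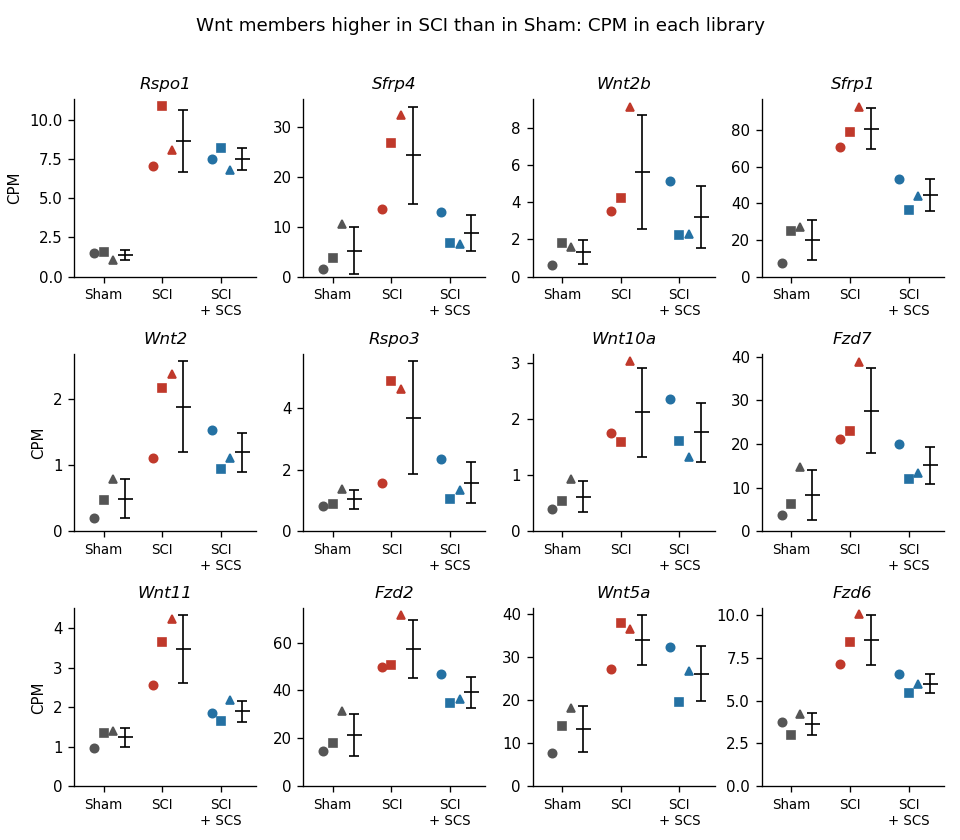
Each panel gives the CPM of 1 member that was higher in SCI, in Sham, SCI and SCI + SCS, with circles, squares and triangles for replicates 1, 2 and 3 and the bar for the mean and SD. In all 12 panels the lowest SCI point lies above the highest Sham point, by the widest relative margin for Rspo1 (7.03 against 1.58 CPM).

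Receptors moved both ways, with 3 higher and 2 lower of 13 tested. Fzd7, a Frizzled of stem and progenitor cells, was at 3.85, 6.34 and 14.8 CPM in Sham and 21.2, 23.0 and 38.9 in SCI (log2FC 1.71 ± 0.51, adjusted p = 0.0306). Fzd2, the most abundant receptor over the 9 libraries, was at 14.7, 17.9 and 31.4 CPM against 49.7, 50.8 and 71.4 (log2FC 1.41 ± 0.30, adjusted p = 0.00998). Fzd6, which acts in planar cell polarity, was at 3.76, 2.96 and 4.24 CPM against 7.14, 8.44 and 10.03 (log2FC 1.21 ± 0.21, adjusted p = 0.00497). For each of the 3 the groups were apart, and Fzd6 had the tightest Sham values. Fzd9 fell from 13.0, 11.7 and 10.2 CPM to 6.13, 5.02 and 5.06 (log2FC -1.12 ± 0.17, adjusted p = 0.00304). Fzd5 fell from 6.24, 6.38 and 8.35 CPM to 4.14, 2.45 and 3.83 (log2FC -1.03 ± 0.25, adjusted p = 0.0154).

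The co-receptors did not pass the test. Lrp5 had a log2FC of 0.30 ± 0.19 (adjusted p = 0.227), Lrp6 one of -0.49 ± 0.47 (adjusted p = 0.418) and Ror2, a receptor for Wnt5a, one of 0.37 ± 0.21 (adjusted p = 0.185). Fzd10 had a log2FC of -0.58 ± 0.27 (adjusted p = 0.120), and Fzd1, Fzd3, Fzd4 and Fzd8 lay between -0.46 and 1.20 without a call by edgeR. Fzd1, at the upper end with overlapping groups (log2FC 1.20 ± 0.46, adjusted p = 0.0665 in edgeR), was called higher by DESeq2 (adjusted p = 0.0233) and by edgeR with a replicate block (adjusted p = 0.0228).

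Of the 10 inhibitors, Sfrp4 and Sfrp1 rose and Wif1 fell. Sfrp4 (ENSRNOG00000054957, chr17:45234097-45330736), a decoy with a Frizzled-like Wnt-binding domain, was at 1.49, 3.69 and 10.4 CPM in Sham and 13.5, 26.8 and 32.4 in SCI (log2FC 2.2 ± 0.70, adjusted p = 0.0383). Its relative Sfrp1 was at 7.69, 25.0 and 27.2 CPM in Sham and 70.5, 78.7 and 92.8 in SCI (log2FC 2.0 ± 0.45, adjusted p = 0.0113). The groups were apart for both, more widely for Sfrp1. Wif1, which binds Wnt proteins directly, was at 7.92, 6.80 and 5.19 CPM in Sham and at 2.75, 2.47 and 2.57 in SCI, with the SCI libraries close together below Sham (log2FC -1.37 ± 0.21, adjusted p = 0.00337). Frzb, another Frizzled-like decoy, overlapped between the groups (log2FC -0.38 ± 0.27, adjusted p = 0.280), as did the abundant Sfrp5 (log2FC -0.41 ± 0.35, adjusted p = 0.361) and Dkk3 (log2FC 0.85 ± 0.34, adjusted p = 0.0766). Sfrp2, Dkk1, Dkk2 and Dkk4 were not called.

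**Figure D3:**
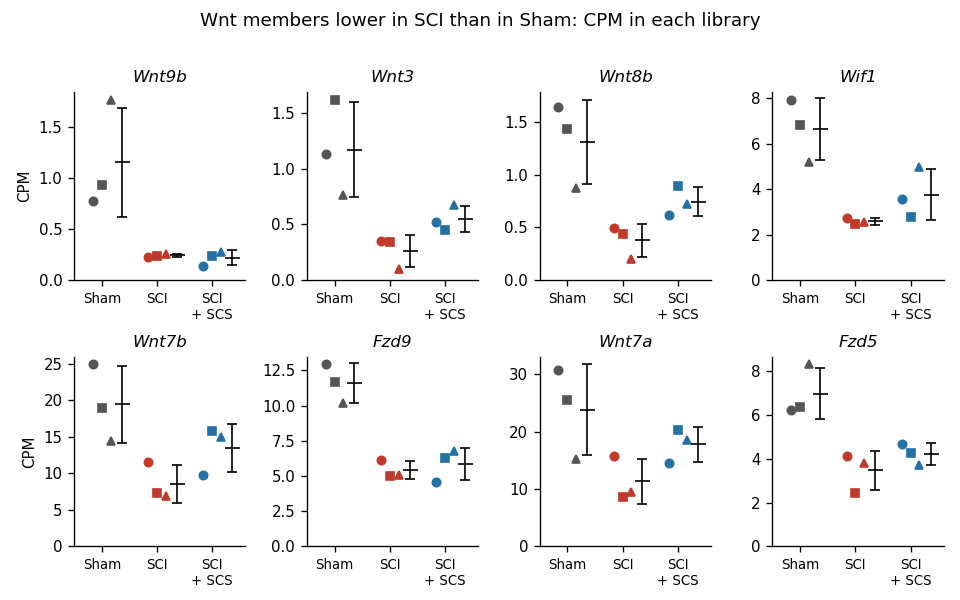
Each panel gives the CPM of 1 member that was lower in SCI, drawn as in the plot of the members that rose. The SCI points lie below all Sham points except for Wnt7a, where SCI replicate 1 (15.8 CPM) passes Sham replicate 3 (15.2 CPM), and most SCI + SCS points sit above the SCI mean, except for Wnt9b.

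Axin2 is a negative regulator that β-catenin switches on in most tissues, and its RNA is widely read as a gauge of canonical signalling. It was at 7.33, 8.98 and 12.1 CPM in Sham, 6.94, 8.29 and 9.20 in SCI and 7.86, 9.76 and 7.51 in SCI + SCS. The groups overlapped, and the log2FC was -0.23 ± 0.22 in SCI against Sham (adjusted p = 0.405), 0.05 ± 0.17 in SCI + SCS against SCI (adjusted p = 0.887) and -0.17 ± 0.21 in SCI + SCS against Sham (adjusted p = 0.550). Dkk1, an inhibitor that blocks Lrp5 and Lrp6 and is itself a known β-catenin target, was sparse, at 0.802, 0.466 and 0.263 CPM in Sham, 0.0888, 0.312 and 0.0867 in SCI and 0.295, 0.298 and 0.329 in SCI + SCS. Its log2FC in SCI against Sham was -1.65 ± 0.70 (adjusted p = 0.0887), with SCI replicate 2 inside the Sham range. It is described here because of its promoter, after its values were seen.

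The 250 bases before the annotated start were read for the members found in the RefSeq promoter table of the GRCr8 assembly, a later build than that of the counts. By symbol, 32 of the 47 members matched. The TCF/LEF letters CTTTGAA, and the same letters ending in AT, in TA or in TT, were searched on both strands. They occurred before the start of 4 members (12.5%), namely Axin2, Dkk1, Sfrp5 and Wnt8a, and of 14.9% of all 33469 promoters in the table. Each member was read from 1 window, the first listed, while the share of all promoters counts every window. A match is a description of the letters and no evidence of binding. The windows of Axin2 (chr10:94398535-94398784, plus strand), Dkk1 (chr1:237798651-237798900, minus strand) and Sfrp5 (chr1:250960513-250960762, minus strand) are printed on the gene's strand, 5′ to 3′ and ending at the base before the start, with each match in capitals. Axin2 and Dkk1 hold 2 matches each, and Sfrp5, the most abundant inhibitor, holds 1 on the opposite strand. The window of Wnt8a is not printed.
Axin2: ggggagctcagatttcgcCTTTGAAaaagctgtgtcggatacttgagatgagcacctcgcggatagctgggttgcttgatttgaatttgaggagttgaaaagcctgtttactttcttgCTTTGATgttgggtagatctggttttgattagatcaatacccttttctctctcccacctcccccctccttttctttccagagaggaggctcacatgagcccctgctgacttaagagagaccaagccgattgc
Dkk1: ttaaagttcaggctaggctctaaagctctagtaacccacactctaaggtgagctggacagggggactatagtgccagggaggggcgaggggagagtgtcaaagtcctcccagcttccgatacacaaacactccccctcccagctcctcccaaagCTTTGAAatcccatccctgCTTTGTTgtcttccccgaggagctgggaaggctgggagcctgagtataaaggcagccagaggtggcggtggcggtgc
Sfrp5: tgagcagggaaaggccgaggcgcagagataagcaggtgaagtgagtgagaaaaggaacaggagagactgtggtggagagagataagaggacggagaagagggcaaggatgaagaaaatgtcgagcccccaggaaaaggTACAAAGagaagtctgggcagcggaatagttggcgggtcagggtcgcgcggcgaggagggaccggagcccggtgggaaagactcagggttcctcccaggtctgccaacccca
In Axin2 the matches begin 232 and 132 bases before the start, in Dkk1 96 and 77 bases and in Sfrp5 112 bases. None of these 3 genes was called by the main edgeR fit of any comparison. Dkk1 was called in 1 of the 6 fits of SCI against Sham that left out a library.

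Cell type markers and Sham replicate 1 moved with part of these differences. Sham replicate 1 was below 0.5 times the lower of the other Sham libraries for 11 of the 43 members (25.6%), for all 8 fibroblast and meninges markers and for 5.93% of all rows tested. The 11 members were Wnt16, Wnt6, Sfrp1, Rspo2, Wnt4, Wnt2b, Sfrp4, Wnt2, Wnt5b, Sfrp5 and Wnt10b, a list made after the values were seen. Wnt16 was 15.8 times lower there than in the lower of the other Sham libraries and Wnt6 was 7.47 times lower, while Rspo1, Fzd6, Wnt9b and Fzd9 were not in that list. Of 7 microglia and macrophage markers, 4 were called higher in SCI than in Sham, and their sum was 217 to 353 CPM in Sham, 1801 to 2408 in SCI and 1284 to 1528 in SCI + SCS. Gpnmb alone, a lysosomal glycoprotein of activated macrophages, was at 832 to 1421 CPM in SCI, while P2ry12, a marker of resting microglia, overlapped between SCI (21.6 to 41.9 CPM) and Sham (23.8 to 32.0). The part of these cell types in the members' differences was not tested.

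**Figure D4:**
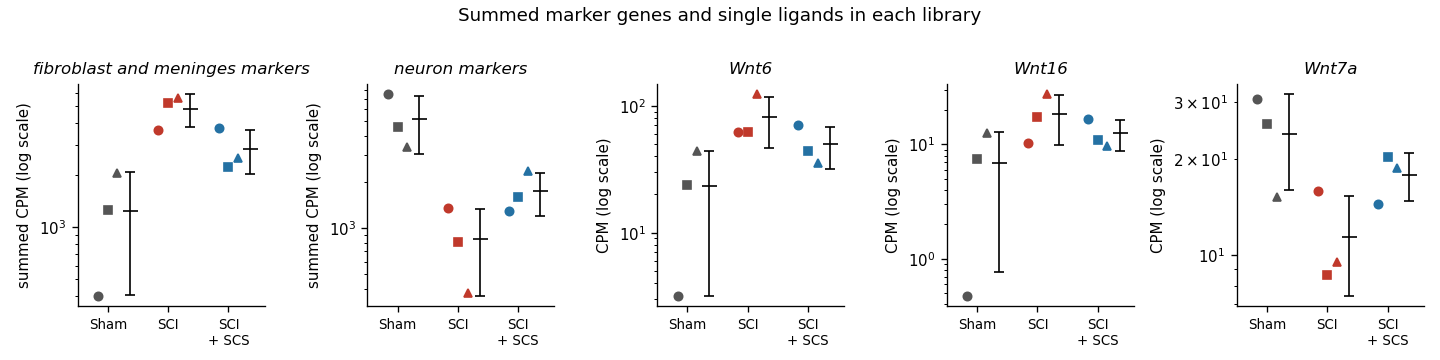
The panels give, on log axes, the summed CPM of 8 fibroblast and meninges markers and 8 neuron markers and the CPM of Wnt6, Wnt16 and Wnt7a in each library, with symbols as in the plots of the called members. Sham replicate 1 (circle) is lowest in the fibroblast sum, Wnt6 and Wnt16 and highest in the neuron sum and Wnt7a.

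Without Sham replicate 1, 14 members were called, 9 higher and 5 lower, and Sfrp4, Rspo3, Fzd7, Wnt7b and Wnt8b were among those lost. The count was 12 without Sham replicate 2, 14 without SCI replicate 3 and 21 without SCI replicate 1, and 9 members were called whichever of the 6 libraries was left out: Rspo1, Sfrp1, Wnt11, Wnt5a, Fzd2, Fzd6, Wnt9b, Wif1 and Fzd9. The share of all rows called in these fits was not counted, so a change of these counts cannot be set against that of all genes.

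High-frequency stimulation after injury was then compared with injury alone. By edgeR, 0 of the 43 members tested differed between SCI + SCS and SCI at an adjusted p under 0.05 and |log2FC| over 1. Over all 17663 rows, 0.00566% were called higher and 0% lower, so the count of members is that of nearly all genes. At an unadjusted p under 0.05 with |log2FC| over 1, 0 members were higher and 2, Sfrp4 and Rspo3, were lower (background 3.03% higher and 2.56% lower). DESeq2 called 1 of 40 members, Sfrp4, lower and 0 higher (background 2.14% and 2.53% of 16503 rows). The libraries did not overlap for 7 members lower in SCI + SCS (Fzd2, Fzd6, Fzd7, Sfrp1, Sfrp4, Wnt11 and Wnt5b, 16.3% against 13.9% of all rows) and for 4 higher (Dkk2, Wif1, Wnt3 and Wnt8b, 9.30% against 15.7%).

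Sfrp4 was at 12.9, 6.78 and 6.57 CPM in SCI + SCS, each below the lowest SCI value of 13.5. Its log2FC was -1.46 ± 0.39, with an adjusted p of 0.10 in edgeR and 0.00150 in DESeq2. Sfrp1 had the smallest unadjusted p of the members, at 53.5, 36.2 and 43.9 CPM in SCI + SCS against 70.5 to 92.8 in SCI. Its log2FC was -0.85 ± 0.17, with an adjusted p of 0.0774 in edgeR and 0.000180 in DESeq2, where it missed the fold change threshold. These 2 decoys were also the 2 inhibitors called higher in SCI than in Sham, by fits that share the SCI libraries. Wnt11 was at 1.85, 1.66 and 2.18 CPM in SCI + SCS (log2FC -0.87 ± 0.25, adjusted p = 0.113) and Fzd7 at 20.0, 12.03 and 13.4 CPM (log2FC -0.86 ± 0.29, adjusted p = 0.136). Fzd2 was at 46.7, 34.7 and 36.5 CPM (log2FC -0.54 ± 0.18, adjusted p = 0.137), Fzd6 at 6.55, 5.45 and 5.94 (log2FC -0.51 ± 0.17, adjusted p = 0.142) and Wnt5b at 21.4, 14.9 and 16.9 (log2FC -0.58 ± 0.20, adjusted p = 0.143). All of these lay below every SCI library, with replicate 1 the highest SCI + SCS library for each but Wnt11. For Wnt5b the gap was narrow, with 21.43 CPM in SCI + SCS replicate 1 against 21.48 in SCI replicate 2. DESeq2 gave Wnt11, Fzd7, Fzd2, Wnt5b and Fzd6 adjusted p values of 0.0197 to 0.0474, each with |log2FC| under 1. The share of all rows that pass DESeq2 without the fold change threshold was not counted. The eighth member by unadjusted p was Wnt7a, at 14.5, 20.3 and 18.6 CPM in SCI + SCS against 15.8, 8.66 and 9.52 in SCI (log2FC 0.66 ± 0.25, adjusted p = 0.175), where the groups overlapped.

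Rspo1 was at 7.51, 8.18 and 6.83 CPM in SCI + SCS, inside or just below the SCI range (log2FC -0.20 ± 0.19, adjusted p = 0.565). Wnt9b was at 0.140, 0.241 and 0.282 CPM (log2FC -0.13 ± 0.43, adjusted p = 0.879), and Wif1 was at 3.56, 2.77 and 4.97, just above every SCI library (log2FC 0.54 ± 0.25, adjusted p = 0.233). Rspo3 was at 2.33, 1.05 and 1.35 CPM (log2FC -1.21 ± 0.49, adjusted p = 0.190), with replicates 2 and 3 inside the Sham range and replicate 1 inside the SCI range. Wnt3 was at 0.519, 0.454 and 0.674 CPM (log2FC 1.04 ± 0.52, adjusted p = 0.265) and Wnt8b at 0.617, 0.893 and 0.721 (log2FC 0.97 ± 0.42, adjusted p = 0.212), each above every SCI library. Wnt7b was at 9.71, 15.8 and 15.0 CPM and overlapped both SCI and Sham (log2FC 0.67 ± 0.27, adjusted p = 0.186). For Lrp5 (log2FC -0.12 ± 0.13), Lrp6 (-0.15 ± 0.43), Ror2 (-0.11 ± 0.16) and Frzb (0.09 ± 0.14) the difference was within 1 SE. It was between 1 and 3 SE for Wnt6 (-0.71 ± 0.35, adjusted p = 0.261), Wnt4 (-0.33 ± 0.16, adjusted p = 0.257) and Sfrp5 (0.33 ± 0.24, adjusted p = 0.432). The same held for Dkk3 (-0.53 ± 0.30, adjusted p = 0.317) and Fzd10 (0.56 ± 0.24, adjusted p = 0.214). All 43 members lay between -1.46 and 1.04. The fibroblast and meninges sum ran from 2242 to 3761 CPM in SCI + SCS against 3664 to 5599 in SCI, overlapping through replicate 1 of each group, and its part in these differences was not tested.

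**Figure D5:**
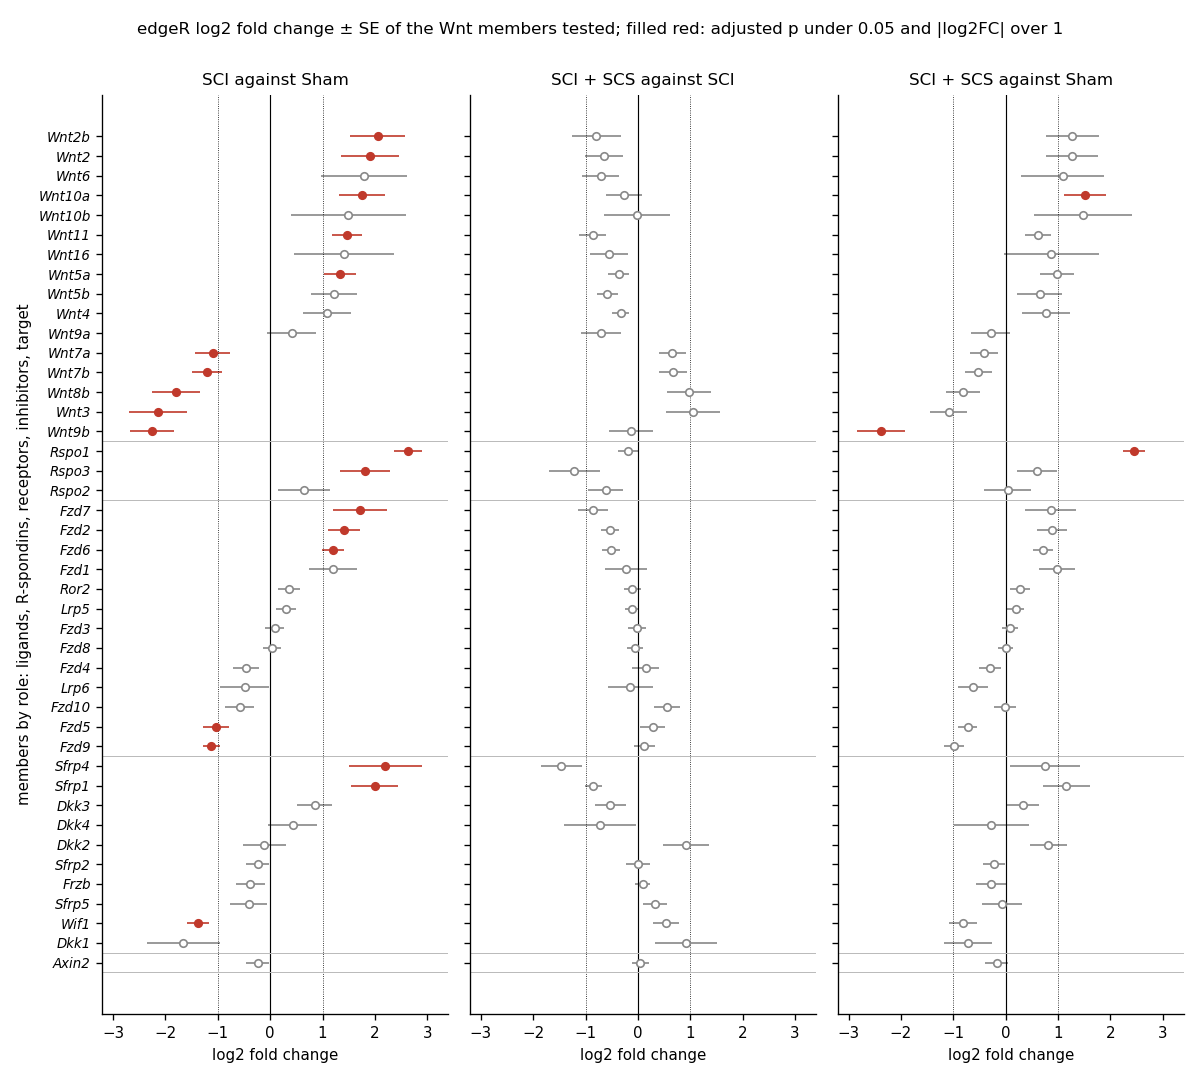
Points are edgeR log2 fold changes and bars 1 SE for the 43 members tested in SCI against Sham, ordered by role, in the 3 comparisons (Rspo4, tested in SCI + SCS against Sham alone, is left out), with dotted lines at -1 and 1 and called members in filled red. Called members number 20 in the first panel, 0 in the second and 3 in the third, where Rspo1 and Wnt10a lie to the right and Wnt9b to the left.

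The stimulated cord was last compared with Sham. Of 44 members tested, 2 were higher and 1 was lower. Rspo1 was higher by a log2FC of 2.45 ± 0.21 (adjusted p = 0.00315), with SCI + SCS libraries at 6.83 to 8.18 CPM and Sham at 1.04 to 1.58. Wnt10a was higher, at 2.36, 1.60 and 1.33 CPM (log2FC 1.51 ± 0.40, adjusted p = 0.0325). Wnt9b was lower by a log2FC of -2.38 ± 0.46 (adjusted p = 0.0134). The groups were apart for each of the 3. Without the threshold on fold change, Fzd9, Fzd5 and Fzd6 also had an adjusted p under 0.05, each with groups apart. By that rule 16.2% of all rows were higher and 16.2% lower. Fzd9 was lower, at 4.55, 6.24 and 6.77 CPM in SCI + SCS (log2FC -0.99 ± 0.19, adjusted p = 0.0129). Fzd5 was lower by a log2FC of -0.73 ± 0.18 (adjusted p = 0.0262), and Fzd6 was higher by one of 0.71 ± 0.19. The background was 6.28% higher and 5.44% lower of 17640 rows, so 2 and 1 of 44 members are shares below it. Groups were apart for 12 members higher (27.3%, against 27.2% of all rows) and 6 lower (13.6%, against 26%). Axin2, Lrp5 (log2FC 0.19 ± 0.17), Lrp6 (-0.62 ± 0.28), Ror2 (0.27 ± 0.19), Frzb (-0.27 ± 0.29) and Wif1 (-0.82 ± 0.27, adjusted p = 0.0582) were not called. Among the abundant members, Wnt6 had a log2FC of 1.08 ± 0.80, Sfrp1 one of 1.16 ± 0.45 (adjusted p = 0.0894 in edgeR) and Fzd2 one of 0.88 ± 0.29 (adjusted p = 0.0581). DESeq2 called 4 of 44 members higher (9.09%, against 7.19% of all rows) and 2 lower (4.55%, against 6.25%), adding Sfrp1 (adjusted p = 0.0214) and Wnt2b (adjusted p = 0.0403) on the higher side and Wnt3 (adjusted p = 0.0302) on the lower. This comparison shares its Sham libraries with the first. Its count was 11 without Sham replicate 3 and 1 without SCI + SCS replicate 1, and Wnt10a lost its call in 5 of the 6 fits that left out a library. The share of all rows called in those fits was not counted.

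The rest of the pathway was read from 98 other genes, listed by role, of which 97 were tested. In SCI against Sham, 12 were higher (12.4%) and 15 lower (15.5%), close to the 13.4% and 13.6% of all rows. Without the threshold on fold change, 24 were higher and 33 lower (24.7% and 34.0%), against 24.3% and 25% of all rows. Of 20 co-receptors and surface regulators 3 were higher and 3 lower, of 21 cytoplasmic β-catenin components 0 and 3, of 13 nuclear partners 1 and 0, of 19 feedback and target genes 4 and 5, and of 24 planar polarity and Wnt calcium components 3 and 7. The roles overlap, and Lgr5, Rnf43 and Znrf3 count both as surface regulators and as feedback genes. Of 8 genes of Wnt secretion and release, only Sulf1, which trims heparan sulfate, was called, in the higher direction.

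Of the R-spondin receptors and the ligases they act on, Lgr5, Rnf43 and Znrf3 fell, and the receptors Lgr4 and Lgr6 were not called. Lgr5 had a log2FC of -1.14 ± 0.35 (adjusted p = 0.0328), Lgr4, the most abundant of the 3 receptors, one of -0.39 ± 0.16 (adjusted p = 0.0904) and Lgr6 one of -0.52 ± 0.25 (adjusted p = 0.129). Rnf43 was at 18.8, 18.4 and 20.9 CPM in Sham, 4.91, 6.53 and 6.56 in SCI and 6.62, 10.7 and 9.29 in SCI + SCS. Its log2FC was -1.71 ± 0.16 in SCI against Sham (adjusted p = 0.00124) and -1.12 ± 0.19 in SCI + SCS against Sham (adjusted p = 0.00929). Znrf3 was low, at 0.472, 2.08 and 1.38 CPM in Sham and 0.381, 0.213 and 0.419 in SCI (log2FC -1.97 ± 0.59, adjusted p = 0.0316). In SCI + SCS it was at 0.716, 0.922 and 1.18 CPM (log2FC 1.48 ± 0.39 against SCI, adjusted p = 0.0997). Rnf43 varied less between the Sham libraries than Znrf3 did.

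Other called pathway genes differed widely in size. Sost encodes sclerostin, a bone-derived blocker of Lrp5 and Lrp6, and had 9, 0 and 2 counts in Sham, 771, 1653 and 1343 in SCI and 567, 776 and 390 in SCI + SCS. Its fitted log2FC was 8.45 ± 0.90 in SCI against Sham (adjusted p = 0.00150) and 7.39 ± 0.85 in SCI + SCS against Sham (adjusted p = 0.00404), and with so few Sham counts the size is imprecise. Sp5, a transcription factor induced by β-catenin, had a log2FC of 2.25 ± 0.62 (adjusted p = 0.0237), Cpz, a carboxypeptidase with a Frizzled-like domain, 2.16 ± 0.57 (adjusted p = 0.0200) and Nfatc4 2.11 ± 0.48 (adjusted p = 0.0124) in SCI against Sham. Among the lower genes were Camk2a, a neuronal kinase of the calcium branch (log2FC -2.89 ± 0.46, adjusted p = 0.00370), and Nfatc2 (log2FC -2.54 ± 0.33, adjusted p = 0.00224). Daam2, a formin linked to planar polarity, was at 46.9, 48.2 and 44.8 CPM in Sham, 13.7, 15.2 and 12.2 in SCI and 19.2, 25.2 and 22.2 in SCI + SCS, 3 ranges that did not overlap (log2FC -1.78 ± 0.12 in SCI against Sham, adjusted p = 0.000923).

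In SCI + SCS against SCI, edgeR called 0 of these 97 genes, beside 0.00566% of all rows higher and 0% lower. At an unadjusted p under 0.05 with |log2FC| over 1 there were 5, beside 3.03% of all rows higher and 2.56% lower. DESeq2 called 4 (Znrf3, Camk2a and Nfatc2 higher, Sost lower), beside 2.53% of all rows higher and 2.14% lower. Without SCI + SCS replicate 1, edgeR called 2. The smallest unadjusted p values belonged to Daam2 (log2FC 0.70 ± 0.14, adjusted p = 0.0782), Nfatc2 (1.18 ± 0.27, adjusted p = 0.0872), Camk2b (0.80 ± 0.18, adjusted p = 0.0872), Camk2a (1.65 ± 0.41, adjusted p = 0.0942) and Znrf3. The median log2FC of the 8 neuron markers was 1.08 in SCI + SCS against SCI, with 0 of the 8 called and sums that overlapped (374 to 1343 CPM in SCI, 1293 to 2352 in SCI + SCS), and their part in these differences was not tested. In SCI + SCS against Sham, 9 of the 97 were called, 6 higher (6.19%, against 6.28% of all rows) and 3 lower (3.09%, against 5.44%), among them Celsr1, a polarity cadherin (log2FC 1.33 ± 0.17), the growth regulator Myc (1.32 ± 0.14), the polarity gene Prickle3 (1.26 ± 0.24) and Nfatc2 (-1.34 ± 0.34). Without SCI + SCS replicate 1 the count was 3, and without Sham replicate 3 it was 15.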

How the data were processed

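RNA-seq libraries of rat spinal cord were mapped to Sham, SCI and SCI + SCS by the labels (3 each, 1 rat per library). The authors deposited raw counts per gene, without normalization, and FPKM, which is scaled by length and library total. FPKM was not a fixed multiple of CPM for every gene. Wnt2b had 0.163 FPKM at 0.613 CPM in Sham replicate 1 and 0.663 FPKM at 1.78 CPM in Sham replicate 2. The part of this in the FPKM orders and ligand shares was not tested. The submitters' processing notes name fastp 0.23.2, HISAT2 2.2.1 and the mRatBN7.2 assembly, and the counting program is not given in the sources used here. Reads of genes in close families may be split between copies.

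Counts were compared by the quasi-likelihood test of edgeR 4.0.16 under R 4.3.3, with TMM scaling and filterByExpr at its default, each time over 6 libraries (both groups of a comparison) and with no covariate. Called genes had a Benjamini-Hochberg adjusted p under 0.05 and |log2FC| over 1, over all rows tested, and the SE of a log2FC is |log2FC| over the root of the test's F. DESeq2 1.42.0, the tool of the paper's methods, was run as an alternative at the same thresholds. Other alternatives were the normalization, the filter, all 9 libraries in 1 fit, a replicate block, each library left out in turn, and limma 3.58.1 on log2(FPKM + 0.1) and log2(FPKM + 1), a scale that understates changes of low genes. For these other alternatives the share of all rows called was not counted. A count of 3 corresponds to 0.0341 to 0.0472 CPM, counting error only. The code was tested on simulated data.

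The members, the other pathway genes and the marker lists were chosen with earlier results of these data known. Named were called members with groups apart, the 8 members with the smallest p in SCI + SCS against SCI, the 3 most abundant of each role, and Axin2, Lrp5, Lrp6, Ror2, Frzb and Wif1. Of the other pathway genes, up to 4 called in each direction by size against Sham and the 5 with the smallest p against SCI were named. Any gene outside this rule was chosen after its values were seen.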

Additional observations from a re-analysis of the deposited data

How the results depend on the processing

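In SCI against Sham, 20 members were called, and 12 to 23 with 1 library left out. With limma on log2(FPKM + 1) the count was 8, all higher, on a scale that understates changes of low genes. For the other pathway genes it was 27, 20 to 28 with 1 library left out, and 57 with no fold change threshold. In SCI + SCS against SCI, the 0 members became 1 with DESeq2 and 2 at an unadjusted p under 0.05. They stayed 0 with any library left out. The 0 other pathway genes became 4 with DESeq2 and 5 at an unadjusted p, and ranged from 0 to 2 with 1 library left out. In SCI + SCS against Sham, the 3 members became 6 with DESeq2, 1 with limma on log2(FPKM + 1), 7 at an unadjusted p and 6 with no fold change threshold, and ranged from 1 to 11 with 1 library left out. Of all rows in that comparison, 7.89% were higher and 6.6% lower at an unadjusted p under 0.05 with |log2FC| over 1. With no fold change threshold these shares were 16.2% and 16.2%. The 9 other pathway genes became 5 with limma on log2(FPKM + 1) and 33 with no fold change threshold, and ranged from 3 to 15 with 1 library left out. The cause of these changes was not tested.

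Replicate numbers named different rats, and the deviations of same-numbered libraries correlated by -0.33 to 0.24, so the numbers did not pair the samples. With the replicate block, 24 members were called in SCI against Sham, the further 4 being Wnt6, Wnt4, Wnt5b and Fzd1, 0 in SCI + SCS against SCI and 2 in SCI + SCS against Sham, and 5 other pathway genes in SCI + SCS against Sham.

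The log2FC of the named members turned sign in 22 of the 1055 recomputed values, and none of these had a call. With 1 library left out, Axin2 ranged from -0.076 to 0.14, Lrp5 from -0.22 to 0.0017 and Lrp6 from -0.53 to 0.25 in SCI + SCS against SCI. In SCI + SCS against Sham, Axin2 ranged from -0.33 to 0.039, Frzb from -0.51 to 0.059, Fzd10 from -0.14 to 0.22 and Sfrp5 from -0.39 to 0.24. With the replicate block, Lrp6 was 0.0059 and Fzd10 0.0018. With limma on log2(FPKM + 0.1), with or without a filter on FPKM, Lrp6 was 0.010, Fzd10 0.036 and Sfrp5 0.038, and with limma on log2(FPKM + 1) Fzd10 was 0.031 and Sfrp5 0.035.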
